A study of Mus musculus with 4 samples.

Results

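Pgr-positive hormone-sensing luminal cells of the mouse mammary gland are described here from droplet single-cell RNA sequencing of 4 libraries. The cells were chosen from their own counts of unique molecular identifiers (UMIs, each standing for 1 captured transcript). Only cells with at least 2000 UMIs were considered. A cell was called hormone-sensing when its luminal keratin UMIs (Krt8, Krt18 and Krt19) summed to at least 5 and to more than 3 times its basal UMIs (Krt5, Krt14, Krt17 and Acta2), and when Ly6d, Fxyd2 and Gpx3 together gave at least 3 UMIs and more than Wfdc18, Csn3 and Ltf. Members were the hormone-sensing cells with at least 2 Pgr UMIs. They numbered 278 of the 1149 hormone-sensing cells (24.2%) and of 18223 cells in all (1.53%). Hormone-sensing cells with no Pgr UMI, 604 in all, served as the comparison, and the 267 cells with exactly 1 Pgr UMI were kept apart.

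The series comprised FVB mice carrying Tfap2c fl/fl and Krt5-CreERT2, so every animal, control or treated, held the floxed allele and the inducible recombinase. Mice received injections of corn oil or 4OHT (4-hydroxytamoxifen, which activates CreERT2) starting at postnatal week 4. The injections were a short course, 5 days by 1 label, though the labels differ on its length. Mammary epithelial cells were taken at week 9 from the fourth glands of 2 mice per condition, sequenced as 2 libraries per condition. The study asked how loss of Tfap2c, which encodes the transcription factor AP-2γ, affects mammary stem cells. Krt5 is a basal cell gene, so its promoter drives the recombinase chiefly outside the hormone-sensing cells, and the labels do not say which exons of Tfap2c are flanked, so these 3′ counts do not check the deletion. Tfap2c gave 19 and 10 UMIs over all hormone-sensing cells after corn oil, and 16 and 13 UMIs after 4OHT (log2 difference -0.45, SE 0.56, not passing). 4-Hydroxytamoxifen also binds the estrogen receptor, and the design held no mice that received 4OHT without the Cre or floxed alleles, so effects of the drug and of recombination cannot be told apart.

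Hormone-sensing luminal cells are the mammary cells that carry the receptors for estrogen and progesterone. Estrogen acts through ESR1 and induces Pgr, the progesterone receptor gene. The receptor-bearing cells signal to their neighbours through secreted factors, among them amphiregulin, RANKL and WNT4. Before they bind hormone, steroid receptors are held in a folded state by a chaperone complex built on HSP90 and cochaperones such as FKBP4, and on DNA they work through coactivators such as CREBBP and corepressors such as NCOR1 and NRIP1.

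The libraries held 3546 and 4323 cells (corn oil replicates 1 and 2) and 4809 and 5545 cells (4OHT replicates 1 and 2), with 17351950 to 22017878 UMIs each. Of 18067 distinct barcodes, 155 occurred in 2 or more libraries. 4 member barcodes recurred in another library, and no barcode was a member in more than 1. No member exceeded 10% mitochondrial UMIs.

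Members were found in every library. Corn oil replicate 1 held 39 among 151 hormone-sensing cells, corn oil replicate 2 held 81 among 326, 4OHT replicate 1 held 65 among 236 and 4OHT replicate 2 held 93 among 436. The median Pgr count of a member was 3 UMIs in the first 3 of these libraries and 2 in the last, and the highest count in any cell was 10. Just inside the threshold stood 128 cells with 2 Pgr UMIs and just outside it the 267 cells with 1, while 150 members had 3 or more. At the edge of the hormone-sensing gate, 14 members had exactly 3 UMIs of Ly6d, Fxyd2 and Gpx3. Median depth was 8293, 5203, 7099 and 5557 UMIs per member in the same library order. Because a deeper cell is likelier to show 2 Pgr UMIs, a cell without a Pgr UMI is not thereby a cell without Pgr RNA. Below, the words cells without Pgr stand only for hormone-sensing cells in which no Pgr UMI was counted.

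Cells with at least 2 Pgr UMIs also occurred outside the rule. Over all libraries, 360 cells had at least 2 Pgr UMIs and 357 of these had 2000 UMIs or more. The hormone-sensing rule held 278 (77.9%), a luminal progenitor rule with the reverse balance of the marker sums held 23, a basal rule held 7, and 49 satisfied no rule. Of those 49, 24 were luminal with too few UMIs of Ly6d, Fxyd2 and Gpx3 for the gate, 23 did not exceed 3 times their basal UMIs and 9 had under 5 luminal keratin UMIs, and these reasons can overlap.

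Markers that the rule did not use set the members apart from cells of the other rules, as the hormone-sensing label requires. Values are CPM, a gene's UMIs scaled to a common total after the cells of a class were summed in each library, averaged over the 4 libraries. Members held 591 CPM of Prlr, the prolactin receptor, against 18.6 in luminal progenitor rule cells and 4.1 in basal rule cells. Esr1 stood at 33.5 CPM against 3.6 and 4.5, Foxa1 at 87.1 against 2.4 and 0.61, Areg at 275 against 7.5 and 3.8, and Prom1 at 47.7 against 2.7 and 3.1. Ly6a, also known as Sca-1, was at 447 CPM in members but at 318 in luminal progenitor rule cells, a smaller separation than for the other markers. Luminal progenitor genes were low in members. Kit was at 0.42 CPM against 13.8 in luminal progenitor rule cells, Elf5 at 8.2 against 164, Aldh1a3 at 22.8 against 250 and Cd14 at 25.8 against 647. Basal genes were low as well, with Myl9 at 7.1 CPM against 397 in basal rule cells, Mylk at 2.9 against 400, Cnn1 at 8.0 against 665 and Trp63 at 1.2 against 69.9.

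Pgr-positive cells made up 7.57% to 8.90% of hormone-sensing cells in the 4 libraries once depth was made equal. After every cell was thinned to 2000 UMIs, 8.61% (exact Clopper-Pearson 95% interval 4.66 to 14.3) of hormone-sensing cells in corn oil replicate 1 still had 2 Pgr UMIs, 8.59% (5.78 to 12.2) in corn oil replicate 2, 8.90% (5.59 to 13.3) in 4OHT replicate 1 and 7.57% (5.27 to 10.5) in 4OHT replicate 2. These intervals cover counting error only, and all 4 overlap. Corn oil averaged 8.60% ± 0.0144 (SD, n = 2) and 4OHT 8.23% ± 0.940 (SD, n = 2), a difference of -0.366 percentage points (4OHT minus corn oil) with an exact two-sided permutation p of 1, where 2 mice against 2 cannot go below 0.33. Without thinning, members were 25.8%, 24.8%, 27.5% and 21.3% of hormone-sensing cells. The background was far lower. Among thinned luminal progenitor rule cells the share was 0 of 1019 and 0 of 1164 in replicate 1 of corn oil and of 4OHT. The exact 95% intervals there reach 0.361% and 0.316%. In replicate 2 the shares were 0.221% and 0.0929%. Basal rule cells gave 0.114% and 0.0556% in replicate 2 and 0 of 1462 and 0 of 1310 in replicate 1. The exact 95% intervals in replicate 1 reach 0.252% and 0.281%. Without thinning, the luminal progenitor rule shares reached 1.21% and the basal ones 0.222%, at median depths of 3748.5 to 5594 and 3071 to 5190 UMIs against 4749.5 to 8258 in hormone-sensing cells. The plot of Pgr counts by library shows both views.

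**Figure D1:**
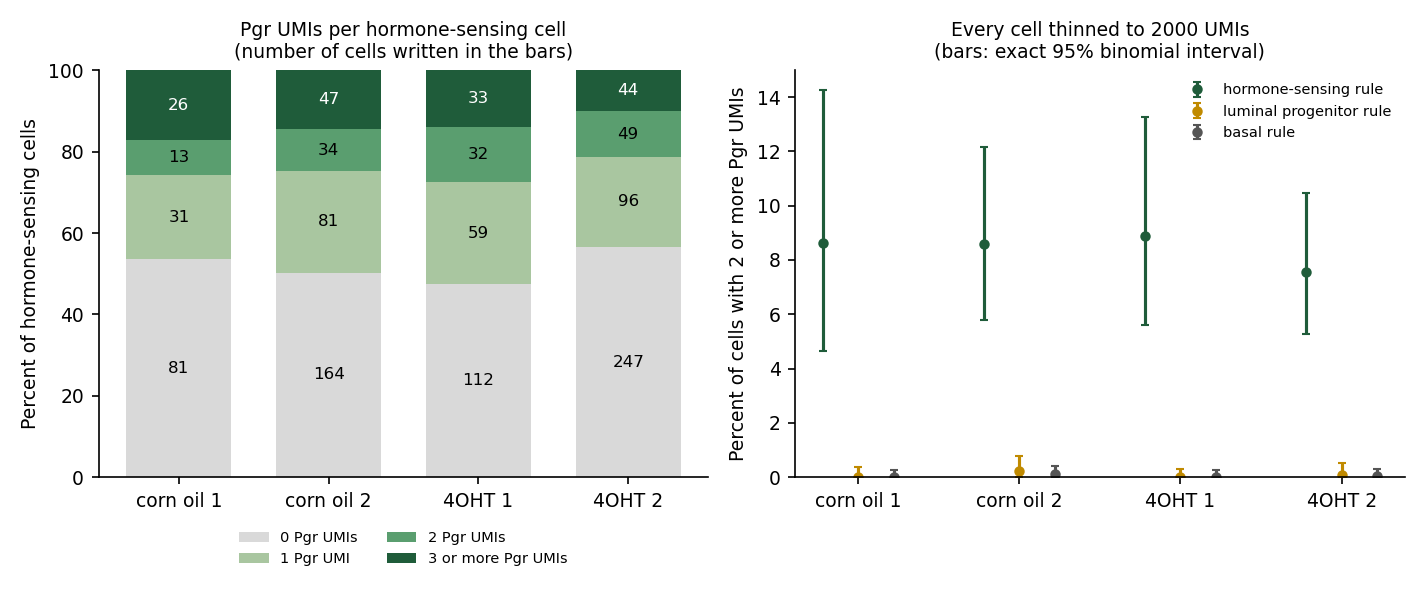
Left: percent of hormone-sensing cells with 0, 1, 2 and 3 or more Pgr UMIs in each library, with cell numbers in the bars. Right: percent of cells with at least 2 Pgr UMIs after thinning to 2000 UMIs, with exact 95% intervals, for cells of the hormone-sensing, luminal progenitor and basal rules; the hormone-sensing shares of 7.57% to 8.90% stand above shares of at most 0.221% in the other classes.

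To see what else differed, each member was paired with a hormone-sensing cell of the same library that had no Pgr UMI and a total UMI count within a ratio of 1.1. This gave 38, 80, 64 and 92 pairs, 274 in all, and 4 members found no partner. UMIs were summed per library and Pgr status, and the 8 sums, which held 317036 to 568328 UMIs each, were compared with edgeR's quasi-likelihood test with library as a term and Benjamini-Hochberg adjustment over all genes tested. The 14 genes of the rule were left out of the test. Levels in this comparison are CPM scaled by edgeR's TMM factors, always in the order corn oil replicates 1 and 2, then 4OHT replicates 1 and 2. Of 3737 genes tested, 396 (10.6%) had an adjusted p under 0.05, 197 (5.27%) higher and 199 (5.33%) lower in Pgr-positive cells, and 373 of the 396 differed in the same direction in all 4 libraries. Those directions by library used CPM without the TMM factors, as did the choice of genes named below for going 1 way. For 244 genes the 4 Pgr-positive sums all lay above the 4 others and for 200 all below, together 11.9% of the genes tested. DESeq2's Wald test called 93 genes, all among the 396 and in the same direction, and without the library term no gene passed (718 at an unadjusted p under 0.05). Leaving out corn oil replicate 1, corn oil replicate 2 or 4OHT replicate 2 gave 250, 167 and 226 calls.

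Among the higher genes the largest difference lay beside Pgr itself. Gm16485, an unnamed gene model, rose by 2.47 on the log2 scale (SE 0.34, adjusted p = 0.000938), from 16.1, 12.3, 6.87 and 3.52 CPM in cells without Pgr to 63.2, 75.2, 42.9 and 28.6 CPM in Pgr-positive cells. The groups do not overlap. In the GRCm38 annotation Pgr lies on chromosome 9 at 8899833-8968611 and Gm16485 at 8971791-8975773, on the same strand and starting 3179 bases past the end of Pgr, so its counts are not clearly separate from the gene that chose the cells. Whether both come from 1 transcript was not tested.

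Rasd1, a small Ras-family GTPase gene first described as dexamethasone-inducible, rose by 1.84 (SE 0.27, adjusted p = 0.00141). Its level was 72.2, 100, 67.4 and 190 CPM in Pgr-positive cells against 38.7, 24.6, 6.87 and 54.6, with no overlap between the groups. Erbb3, the neuregulin receptor of the EGF receptor family, rose by 1.58 (SE 0.31, adjusted p = 0.00716), with 90.3, 43.3, 42.9 and 79.1 CPM against 29.0, 24.6, 20.6 and 12.3, again without overlap. After thinning to 2000 UMIs, 12.1% ± 6.32 (SD, n = 4 libraries) of Pgr-positive cells and 4.90% ± 2.08 of the others had an Erbb3 UMI, and without thinning 32.6% and 13.1%.

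The other higher genes of the 12 with the largest difference among those that went 1 way in all 4 libraries were Arap2 (1.74, SE 0.37), Rcor3, of the REST corepressor family (1.65, SE 0.42), Lcmt1, the methyltransferase of protein phosphatase 2A (1.63, SE 0.24), the histone gene Hist2h4 (1.52, SE 0.34), Thap2 (1.5, SE 0.28), the chromatin remodeller Chd1 (1.5, SE 0.35), the CBP-binding Cited4 (1.45, SE 0.35), Impad1 (1.42, SE 0.31) and the ISG15 protease Usp18 (1.41, SE 0.29), all on the log2 scale. Their mean level in Pgr-positive cells ran from 31.4 CPM for Rcor3 to 139 for Lcmt1. DESeq2 called 6 of these 12 higher genes.

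**Figure D2:**
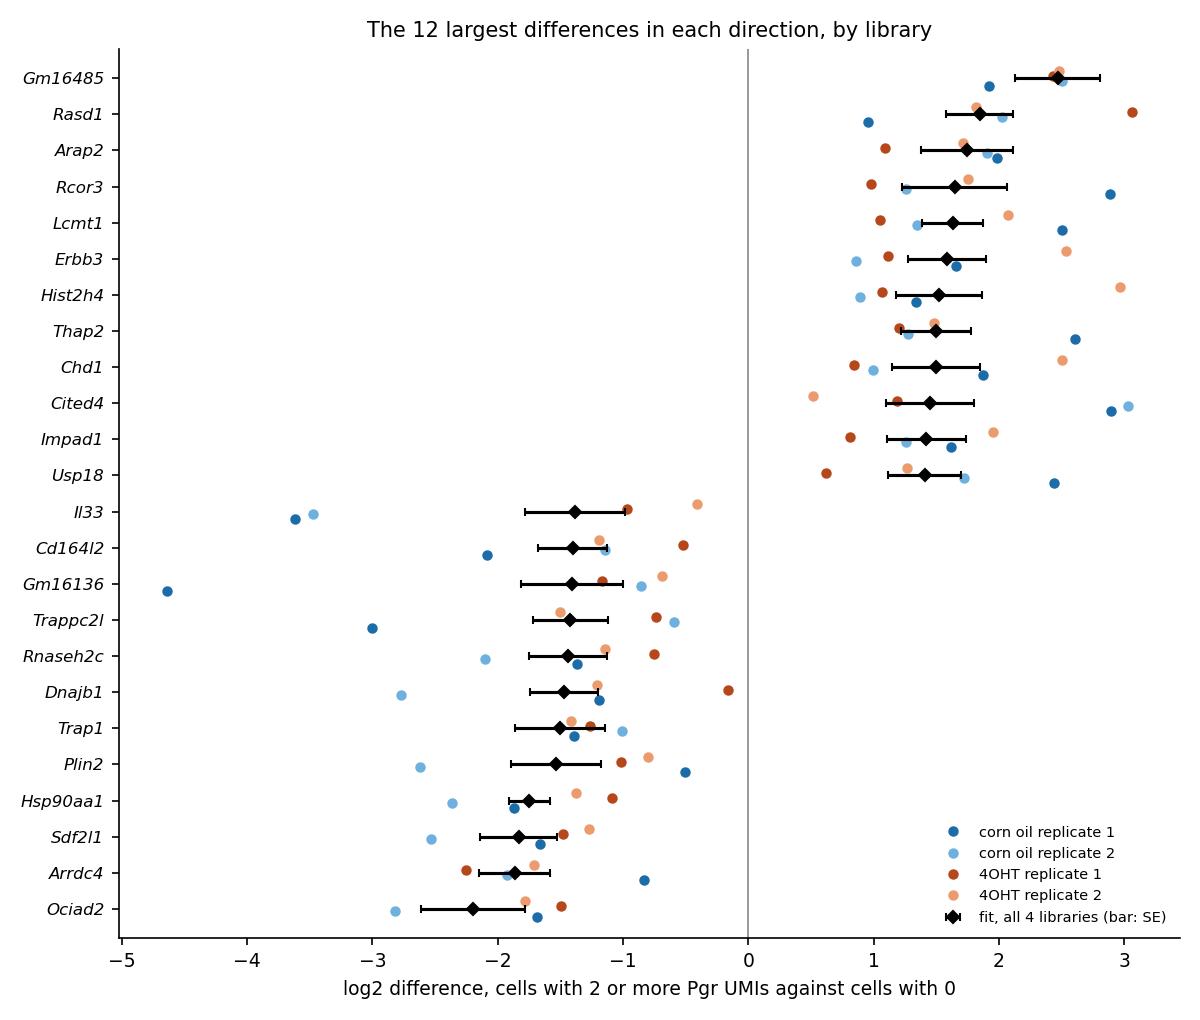
Log2 difference between cells with at least 2 and cells with 0 Pgr UMIs for the 12 largest differences in each direction among genes that passed and went 1 way in all 4 libraries; circles are the 4 libraries, diamonds the fit with its standard error. By this choice every circle of a gene lies on 1 side of 0. Circles are from CPM without TMM scaling, while the fit used the TMM factors. The fit runs from 2.47 for Gm16485 to -2.20 for Ociad2.

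Among the lower genes were several chaperones. Ociad2 fell by 2.20 on the log2 scale (SE 0.41, adjusted p = 0.00636), from a mean of 33.8 CPM to 7.06. Hsp90aa1, the stress-inducible HSP90, fell by 1.75 (SE 0.16, adjusted p = 3.23e-05), with 427, 212, 584 and 718 CPM in Pgr-positive cells against 1671, 1187, 1372 and 1943 in cells without Pgr. The 4 Pgr-positive values all lie below the lowest of the others. Hspb1, the small heat shock protein HSP27, fell by 1.28 (SE 0.12, adjusted p = 3.23e-05), with 1459, 592, 1765 and 2175 CPM against 2884, 2189, 3952 and 4789. Hspb1 levels were lower in each library and did not overlap between the groups, though the highest Pgr-positive value and the lowest other value nearly meet.

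Dnajb1, the HSP40 partner of HSP70, fell by 1.47 (SE 0.27, adjusted p = 0.00582), from 326, 953, 167 and 906 CPM to 132, 128, 135 and 377. The difference was slight in 4OHT replicate 1, and the groups overlap. Hspa1a, the inducible HSP70, fell by 1.02 (SE 0.13, adjusted p = 0.000596), from 955, 593, 1770 and 1255 CPM to 469, 196, 1040 and 710, lower in each library with overlapping groups. Its near-identical neighbour Hspa1b showed -0.11 (SE 0.24) and did not pass, and reads shared by the pair cannot be divided with certainty.

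The remaining genes among the 12 lowest that went 1 way in all 4 libraries, which leaves out Cited1 and Hsph1, were Arrdc4 (-1.86, SE 0.28), the ER chaperone partner Sdf2l1 (-1.83, SE 0.31), the lipid droplet protein gene Plin2 (-1.53, SE 0.36), Trap1, the mitochondrial HSP90 (-1.5, SE 0.36), the RNase H2 subunit Rnaseh2c (-1.44, SE 0.31), Trappc2l (-1.42, SE 0.30), Gm16136 (-1.41, SE 0.41), Cd164l2 (-1.40, SE 0.27) and the cytokine Il33 (-1.38, SE 0.40). Cited1 was left out on CPM without TMM scaling, where it was slightly higher in 4OHT replicate 1 (log2 0.108). With TMM scaling Cited1 was slightly lower there (210 against 215 CPM). DESeq2 called 6 of the 12 lower genes. Ptn, which encodes the secreted factor pleiotrophin, was singled out after its values were seen, and fell from 7402, 4277, 6142 and 6880 CPM to 1823, 2032, 3505 and 3158 (log2 -1.25, SE 0.14). All 4 Pgr-positive values of Ptn are below all 4 others. Tmsb4x, described with the treatment, fell as well (log2 -1.02, SE 0.16).

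Over 18 heat shock chaperone genes, a list drawn up after values were seen, 15 were tested. Of these 10 fell (66.7%, against 5.33% of all genes) and none rose. The median log2 difference was -0.80 beside 0.0065 over all genes tested. Besides those above, Hsph1 fell by 1.49 (SE 0.34), Hspd1 by 1.01 (SE 0.20), Stip1 by 0.85 (SE 0.24), Dnaja1 by 0.80 (SE 0.21), Hspe1 by 0.59 (SE 0.13) and Hspa8 by 0.45 (SE 0.12). Each of these 6 was lower in all 4 libraries, except Hsph1 in 4OHT replicate 2. Constitutive Hsp90ab1 was at 1892 ± 213 CPM against 2134 ± 184 (SD, n = 4 libraries each) and did not pass (log2 -0.18, SE 0.09), nor did Hspa4 (0.38, SE 0.26), Bag3 (-0.66, SE 0.27) or Ahsa1 (-0.61, SE 0.24). With DESeq2's test 6 of 15 fell, beside 64 of 3737 genes over all. Leaving out 1 library at a time, 7 to 9 fell, beside 95 to 185 of the 3747 to 3978 genes tested.

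Heat shock genes are known to be switched on by HSF1 through inverted repeats of the letters GAA upstream of the start, so the promoters of genes that fell are shown. The sequences are RefSeq's on GRCm38.p6, 250 bases up to the start, 5′ to 3′ on the gene's strand. Capitals mark 2 repeat units facing each other, GAANNTTC or TTCNNGAA, which read the same on both strands and may overlap. Hspb1, Hspa1a, Hspe1 and Fkbp4 hold such a pair, and Dnajb1 is shown as a gene that fell and holds none in either of its windows.

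Hspb1, chr5:135887669-135887918, plus strand: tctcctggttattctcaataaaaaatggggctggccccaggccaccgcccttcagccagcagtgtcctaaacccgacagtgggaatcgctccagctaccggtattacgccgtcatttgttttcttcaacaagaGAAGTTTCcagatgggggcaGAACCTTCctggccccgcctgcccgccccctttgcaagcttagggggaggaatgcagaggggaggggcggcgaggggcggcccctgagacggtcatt
Hspa1a, chr17:34972157-34972406, minus strand: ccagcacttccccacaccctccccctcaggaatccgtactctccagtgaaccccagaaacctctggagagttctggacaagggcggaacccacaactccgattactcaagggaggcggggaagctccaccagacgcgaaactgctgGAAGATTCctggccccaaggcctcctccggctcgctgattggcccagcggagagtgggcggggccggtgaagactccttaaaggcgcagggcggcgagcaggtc
Hspe1, chr1:55087898-55088147, plus strand: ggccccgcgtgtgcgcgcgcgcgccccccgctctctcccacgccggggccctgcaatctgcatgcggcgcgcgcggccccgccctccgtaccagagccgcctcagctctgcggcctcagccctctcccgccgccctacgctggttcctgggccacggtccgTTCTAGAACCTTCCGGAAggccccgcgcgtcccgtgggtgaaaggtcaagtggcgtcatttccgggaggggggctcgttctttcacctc
Fkbp4, chr6:128438657-128438906, minus strand: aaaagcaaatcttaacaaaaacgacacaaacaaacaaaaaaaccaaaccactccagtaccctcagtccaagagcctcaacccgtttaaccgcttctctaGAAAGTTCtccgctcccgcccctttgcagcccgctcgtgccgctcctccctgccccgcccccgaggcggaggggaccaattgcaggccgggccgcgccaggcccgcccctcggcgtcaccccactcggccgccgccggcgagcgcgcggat
Dnajb1, chr8:83607925-83608174, plus strand: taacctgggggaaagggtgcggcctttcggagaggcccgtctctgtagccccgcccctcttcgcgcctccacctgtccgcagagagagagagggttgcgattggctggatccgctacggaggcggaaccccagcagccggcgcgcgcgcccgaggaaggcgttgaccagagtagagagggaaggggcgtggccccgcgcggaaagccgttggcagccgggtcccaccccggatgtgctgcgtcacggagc

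In Hspb1 the pairs begin 117 and 97 bases before the start, in Hspa1a 104, and in Fkbp4 151. Hspe1 holds 3 overlapping pairs, and Hspd1, its divergent neighbour on chromosome 1, has the same letters in 1 of its windows because the windows overlap. Of the 10 chaperone genes that fell, 8 had an entry in the promoter table and 6 of these held a pair in at least 1 window. In the whole list, 14 of 18 genes had an entry and 7 held a pair, among them Hspa1b, which did not pass. Over all 32817 single promoters of this length 12.8% held either pair, a share that is not directly comparable because several genes here have more than 1 window. Hsp90aa1 and Hspa8 were without an entry. A match of letters is a description and not a binding site.

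Pgr itself is shown because its RNA chose the cells. In its promoter neither pair occurred, nor the full palindromic estrogen response element, which 0.064% of all promoters of this length hold.

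Pgr, chr9:8899583-8899832, plus strand: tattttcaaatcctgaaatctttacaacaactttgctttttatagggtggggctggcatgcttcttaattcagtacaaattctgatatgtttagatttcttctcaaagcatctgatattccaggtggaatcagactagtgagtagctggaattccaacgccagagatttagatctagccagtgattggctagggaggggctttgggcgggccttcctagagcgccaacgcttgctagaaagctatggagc

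Other stress genes were lower too. From a list of 20 genes that respond to tissue dissociation, 18 were tested. Of these none rose and 6 fell (33.3%, against 5.33% of all genes), at a median log2 difference of -0.25. Those were Hspb1, Dnajb1 and Hspa1a above, and Fos, Atf3 and Socs3. Fos fell by 0.87 (SE 0.24), with 75.2, 118, 306 and 301 CPM against 381, 145, 364 and 567. Atf3 fell by 1.06 (SE 0.27) but was higher in Pgr-positive cells of 4OHT replicate 1 (127 against 108 CPM), and Socs3 fell by 0.86 (SE 0.20) with similar levels there (214 against 236 CPM). Jun (log2 -0.14) and Junb (-0.15) did not pass. Without corn oil replicate 2 the list's median was -0.04 and 5 genes fell, beside 95 of 3978 genes over all.

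Receptors other than Pgr did not move as a group. Of 17 hormone and growth factor receptors 7 were tested, Erbb3 rose and Fgfr2 fell (14.3% each, against 5.27% and 5.33% of all genes). Esr1 stood at 36.1, 15.9, 40.8 and 33.6 CPM in Pgr-positive cells and at 38.7, 29.5, 45.8 and 22.9 CPM in the others, a log2 difference of -0.08 (SE 0.30, adjusted p = 0.886). Its direction differed between libraries and the groups overlap throughout. After thinning, 6.54% ± 4.23 of Pgr-positive cells and 9.11% ± 4.16 of the others had an Esr1 UMI (SD, n = 4 libraries), and without thinning 19.2% and 19.5%. Prlr was at 415, 517, 778 and 601 CPM against 645, 382, 607 and 517 (log2 0.11, SE 0.16, adjusted p = 0.683), higher in 3 of 4 libraries with overlapping groups. Fgfr2 fell by 1.00 (SE 0.19, adjusted p = 0.00636), with 129, 59.2, 98.0 and 158 CPM against 197, 202, 158 and 320, and Thra was at 58.1 against 40.6 CPM and did not pass.

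**Figure D3:**
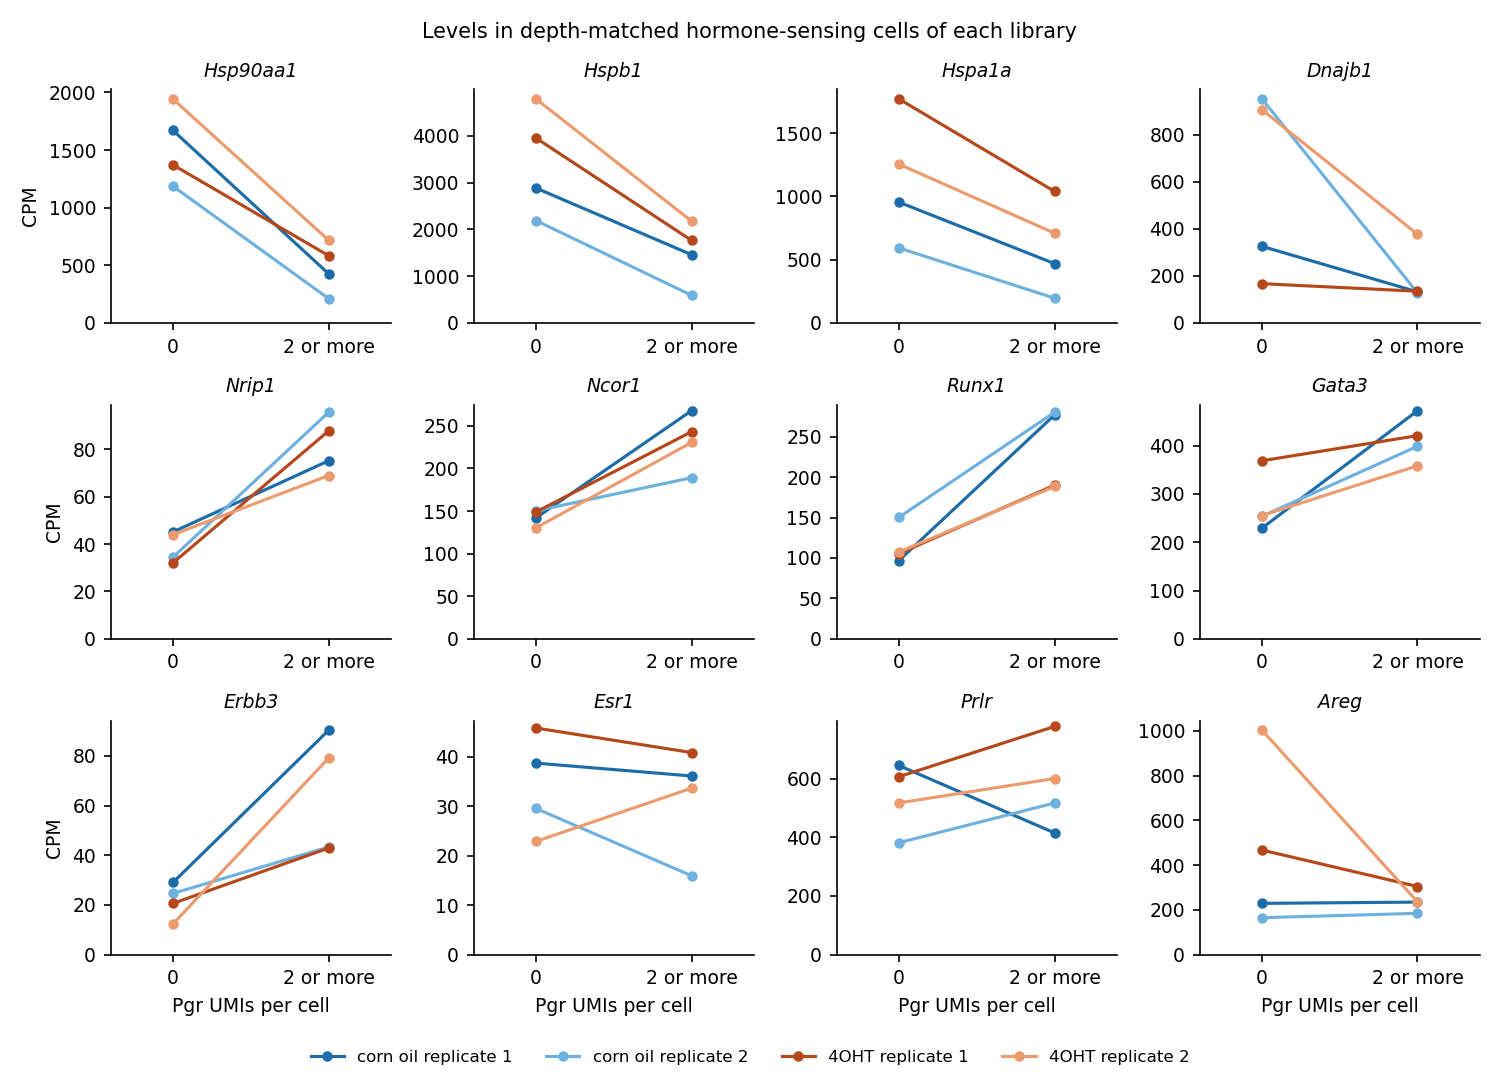
Level in CPM (scaled by edgeR's TMM factors) of 12 genes in hormone-sensing cells with 0 and with at least 2 Pgr UMIs, matched in depth; each line is 1 library and each axis starts at 0. Lines of the 4 chaperone genes in the top row all go down, those of Nrip1, Ncor1, Runx1, Gata3 and Erbb3 go up, and those of Esr1, Prlr and Areg go up in some libraries and down in others.

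Of 18 transcription factors of the hormone-sensing lineage 13 were tested, 2 rose (15.4%, against 5.27% of all genes) and 1 fell (7.69%, against 5.33%), with a median log2 difference of 0.44. Runx1 rose by 1.00 (SE 0.17, adjusted p = 0.00324), from 96.8, 150, 105 and 107 CPM to 277, 280, 190 and 188, without overlap. Gata3, a master regulator of luminal fate, rose by 0.58 (SE 0.15, adjusted p = 0.0267), from 229, 254, 369 and 255 CPM to 472, 399, 421 and 358. It was higher in each library, and 1 value of the others, in 4OHT replicate 1, exceeds the lowest Pgr-positive value. Cited1, a coactivator that binds ESR1 and CBP, fell by 1.54 (SE 0.28, adjusted p = 0.00582), from 626, 552, 215 and 1067 CPM to 235, 77.5, 210 and 283, with equal levels in 4OHT replicate 1. Foxa1, the pioneer factor of ESR1, was at 77.3 ± 27.7 CPM against 78.1 ± 14.4 (SD, n = 4 libraries each; log2 0.0024, SE 0.24). Nfib (133 against 95.3 CPM) and Xbp1 (74.4 against 117) did not pass.

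Coregulators of nuclear receptors were among the higher genes. Of 15 listed, 10 were tested. Of these 3 rose (30%, against 5.27% of all genes) and 2 fell (20%, against 5.33%). The 2 that fell, Hsp90aa1 and Fkbp4, are chaperones of the receptor complex. Nrip1, a corepressor that is itself estrogen-induced, rose by 1.06 (SE 0.23, adjusted p = 0.0141), from 45.2, 34.5, 32.1 and 44.0 CPM to 75.2, 95.7, 87.8 and 69.0. Ncor1 rose by 0.69 (SE 0.16, adjusted p = 0.0160), from 142, 150, 149 and 130 CPM to 268, 189, 243 and 230. Both separate the groups without overlap, as does Crebbp, the CBP acetyltransferase, which only just passed (log2 0.82, SE 0.25, adjusted p = 0.0497). Fkbp4 fell by 0.98 (SE 0.29, adjusted p = 0.0442) but was higher in Pgr-positive cells of corn oil replicate 2 (43.3 against 27.1 CPM). Ddx5 did not pass (616 against 572 CPM). None of the 3 higher genes passed with DESeq2's test, which called 29 of 3737 genes higher over all.

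Among paracrine signals, 14 ligands were listed, 5 were tested and 1 (20%, against 5.27% of all genes), Efna1, rose (log2 0.75, SE 0.22, adjusted p = 0.0396). Areg, which encodes amphiregulin and mediates estrogen's effect on ductal growth, was at 235, 185, 304 and 236 CPM in Pgr-positive cells against 229, 165, 467 and 1003 in the others (log2 -0.72, SE 0.27, adjusted p = 0.0972). The groups overlap, and 2 libraries went each way. In 4OHT replicate 1 the 64 paired members held 149 Areg UMIs and all 65 members held 208. Wnt4, a target of the progesterone receptor, was at 27.1, 34.2, 18.4 and 33.6 CPM against 119, 19.7, 27.5 and 42.2 (log2 -0.65, SE 0.36, adjusted p = 0.245). Wnt5a (85.7 against 50.2 CPM, adjusted p = 0.0527) and Wnt7b (55.7 against 48.1 CPM) did not pass. Tnfsf11, which encodes RANKL, had 0 UMIs in the 278 members and in all 1149 hormone-sensing cells, which allows a share of cells with a UMI of up to 1.08% and 0.261%. Calca, another target of the progesterone receptor, had 1 UMI in members.

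Of 20 estrogen response genes 9 were tested, Nrip1 rose and Cited1 fell (11.1% each, against 5.27% and 5.33% of all genes). Greb1 was too low to test, with 8 UMIs in members, 6 of them in 4OHT replicate 1. Ccnd1 (26.4 against 54.3 CPM) and Stc2 (327 against 486 CPM) did not pass. Of 14 progesterone response genes 6 were tested and none passed. Sgk1 was at 76.7 against 69.7 CPM and Stat5a at 51.0 against 40.9 CPM. The single tested proliferation gene, Hmgb2, was at 168 against 194 CPM and did not pass.

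Of 16 interferon response genes 9 were tested. None fell and 3 rose (33.3%, against 5.27% of all genes), at a median log2 difference of 0.74. They were Usp18, Rtp4 (log2 1.20, SE 0.27, adjusted p = 0.0154) and Oasl2 (0.91, SE 0.25, adjusted p = 0.0320). Rtp4 went from 29.0, 98.5, 48.1 and 82.7 CPM to 184, 235, 122.5 and 92.5. Isg15 was higher in 3 libraries and lower in 4OHT replicate 1 (28.6 against 103 CPM) and did not pass, nor did Bst2 (151 against 194 CPM) or Ifi27 (244 against 170 CPM). Without corn oil replicate 2, 1 gene of this list passed, beside 167 of 3978 genes over all. Summed without TMM scaling, the list was higher in Pgr-positive cells except in 4OHT replicate 1 (775 against 1039 CPM). The difference by Pgr status was lower after 4OHT than after corn oil for 10 of 11 genes tested for it (median log2 -0.99, none passed). Over all genes tested for it, that held for 2310 of 4647.

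Surface and neighbouring-lineage genes fell where they passed. Of 12 tested surface and secreted genes of hormone-sensing cells 2 fell (16.7%, against 5.33% of all genes). Epcam fell (log2 -0.55, SE 0.10, adjusted p = 0.00636), from 2038, 1640, 1997 and 1121 CPM to 1206, 1014, 1548 and 851. Ly6a fell (-0.67, SE 0.18, adjusted p = 0.0314) except in 4OHT replicate 2 (474 against 407 CPM). Cd24a (2470 ± 112 against 2218 ± 120 CPM), Wfdc2 (1473 ± 589 against 1406 ± 93.1 CPM) and Cldn4 (1017 ± 282 against 857 ± 324 CPM, SD, n = 4 libraries each) did not pass. Of 5 tested luminal progenitor genes Plet1, Rhov and Trf fell (60%, against 5.33% of all genes), by 0.62, 1.17 and 1.17. Yet Rhov and Trf were higher in corn oil replicate 1, and Lcn2 did not pass. None of the 4 tested basal genes, Sparc, Lgals7, Apoe and Cxcl14, passed, with 21.2, 22.6, 40.6 and 27.7 CPM in Pgr-positive cells. None of the luminal progenitor genes passed without corn oil replicate 2 or with DESeq2's test, beside 167 of 3978 and 93 of 3737 genes over all.

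**Figure D4:**
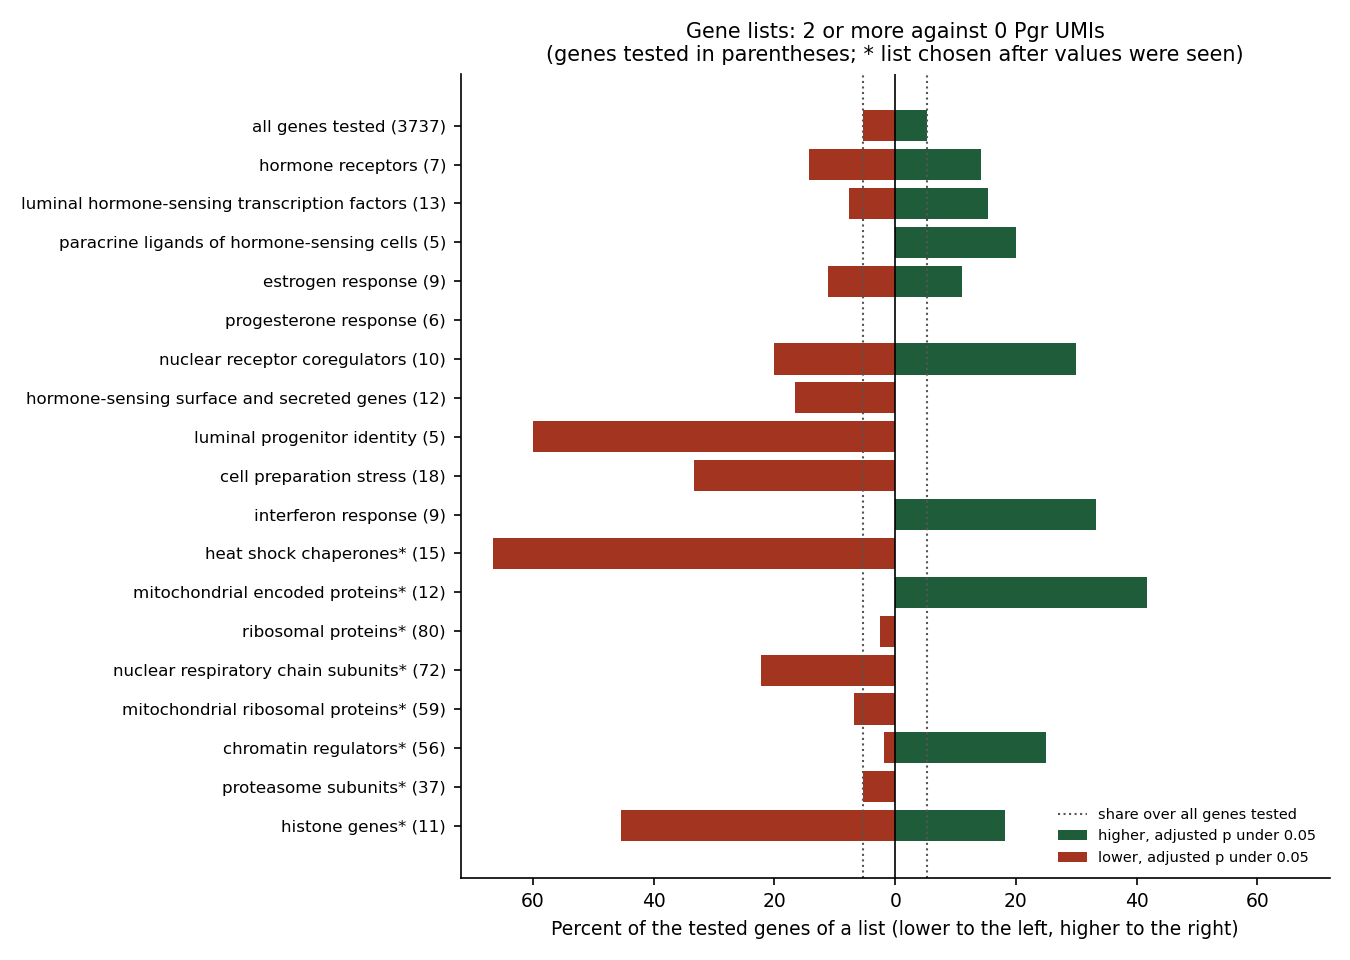
Percent of the tested genes of each list with an adjusted p under 0.05, lower to the left and higher to the right, for lists with at least 5 tested genes; dotted lines mark 5.27% higher and 5.33% lower over all genes. Of the lists chosen after values were seen, heat shock chaperones reach 66.7% lower, histone genes 45.5% lower and mitochondrially encoded genes 41.7% higher; luminal progenitor genes reach 60% lower, of 5 genes.

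Members also differed in features of the whole cell. At matched depth (medians differed by 36.5 UMIs on average over the libraries), Pgr-positive cells had more genes detected in 4 of 4 libraries, with medians of 2043.5, 1389.5, 1725.5 and 1512.5 against 1856, 1265, 1641 and 1378, a mean difference of 133 ± 42.4 genes (SD, n = 4; exact sign-flip permutation p = 0.13, the smallest 4 pairs allow). Thinned to 2000 UMIs the difference was 54.0 ± 7.82 genes. Mitochondrial UMIs were 2.60%, 2.41%, 2.16% and 2.65% against 1.75%, 2.29%, 1.98% and 1.80%, higher in 4 of 4 libraries (exact p = 0.13). Genes higher in Pgr-positive cells were long, with a median span of 37.6 kb and a median level of 55.8 CPM. Lower genes spanned 6.82 kb at 145 CPM, and all tested genes 18.7 kb at 49.9 CPM. The nuclear RNA Neat1 rose (log2 0.80, SE 0.19) except in corn oil replicate 2, Kcnq1ot1 rose in every library (1.16, SE 0.28) and Malat1 did not pass (0.11, SE 0.08); these 3 were chosen after their values were seen. How far gene length, genes detected or mitochondrial share account for the gene differences was not tested.

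Gene families were also found by symbol after values were seen. Of 12 tested mitochondrially encoded genes 5 rose (41.7%, against 5.27% of all genes) and none fell. The largest rise was in mt-Nd3 (log2 1.39, SE 0.22), with mt-Nd1 at 0.72 and mt-Nd2 at 0.80. Neither mt-Co1 (-0.02) nor mt-Atp6 (0.04) passed. Of 72 nuclear-encoded respiratory chain genes 16 fell (22.2%, against 5.33% of all genes) and none rose. Among the lower ones were Atp5b (-0.75, SE 0.13) and Uqcr11 (-0.79, SE 0.15). Of 56 chromatin regulators 14 rose (25%) and 1 (1.79%), Hdac11 (-0.92, SE 0.18), fell. Kmt2e rose by 0.93 (SE 0.19), Chd4 by 1.01 (SE 0.22) and Asxl2 by 1.36 (SE 0.36). Of 11 histone genes 5 fell (45.5%) and 2 rose (18.2%). The lower ones included Hist1h2bc (-1.02, SE 0.12) and Hist3h2a (-1.2, SE 0.28). The higher ones were Hist2h4 and H3f3a (0.48, SE 0.13). Of 80 ribosomal protein genes 2 fell (2.5%), of 59 mitochondrial ribosomal protein genes 4 (6.78%) and of 37 proteasome genes 2 (5.41%), shares below or near the 5.33% over all genes. Most genes of the latter families still lay below 0 in the TMM-scaled fit. That held for 78 of the 80 ribosomal protein genes (median log2 -0.13), 43 of the 59 mitochondrial ribosomal and 29 of the 37 proteasome genes. Over all genes tested, 1850 of 3737 lay below 0. Without TMM scaling the ribosomal differences by library were not uniform. Rps27 was at 0.071, 0.096, -0.13 and 0.17, and Rpl11, which passed, at -0.23, -0.048, -0.31 and -0.22 (log2). The part of the TMM factors in these signs was not tested. DESeq2 called 1 chromatin regulator higher and 6 respiratory chain genes lower, beside 29 higher and 64 lower of 3737 genes over all.

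Markers of other cells, summed here in CPM without TMM scaling, varied widely between libraries. Leukocyte markers summed to 0 to 10.6 CPM in Pgr-positive cells and to 5.31 to 540 CPM in the others, the 540 in 4OHT replicate 1, and 9 of 14, Ptprc among them, had 0 UMIs in Pgr-positive cells. Fibroblast markers were lower in Pgr-positive cells of all 4 libraries, at 122.8 to 1167 against 126 to 1837 CPM, with Col1a1, Col3a1, Lum, Pdgfra and Dpt at 0 in Pgr-positive cells. Dcn, the most abundant of them, passed as lower (log2 -0.54, SE 0.17, adjusted p = 0.0497), and Gsn did not. With TMM scaling, Dcn reached 1048 CPM in Pgr-positive cells of 4OHT replicate 1, where Pgr was at 449 CPM. Endothelial markers gave 8.61 to 389 CPM against 15.8 to 73.1 CPM, the 389 in 4OHT replicate 2. Tie1 was at 0. Pecam1 did not pass and, with TMM scaling, gave 60.6 CPM in Pgr-positive cells of 4OHT replicate 2. Summed luminal progenitor markers were 413 to 600 against 407 to 1042 CPM and basal markers 167 to 176 against 158 to 278 CPM, each higher in Pgr-positive cells of 1 library. The part of these cells' RNA in the gene differences was not tested. Restricting both groups to cells with few basal and luminal progenitor UMIs and no unusually high depth kept 220 members and gave 239 calls.

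Among members, cells with 3 or more Pgr UMIs stood further from cells without Pgr than cells with 2 for some genes and not for others. The values are a description over all cells without depth matching. Runx1 was at 119, 174, 178 and 277 CPM in cells with 0, 1, 2 and 3 or more Pgr UMIs (means of 4 libraries), and Gata3 at 260, 287, 357 and 484. Ptn went the other way, at 5878, 4386, 3286 and 2336 CPM. Other genes showed no further step between cells with 2 and cells with 3 or more. Nrip1 was at 87.2 and 82.8 CPM there, Hspb1 at 1509 and 1522, Hspa1a at 654 and 651 and Dnajb1 at 194 and 210. Hsp90aa1 was at 1381 and 1149 CPM with 0 and 1 Pgr UMI and at 526 and 494 with 2 and with 3 or more, and its values with 1 Pgr UMI ran from 420 to 2281 CPM between libraries. Areg was at 454, 420 and 426 CPM in the first 3 classes and at 155 ± 57.3 (SD, n = 4 libraries) in cells with 3 or more, with 87.4, 167, 140 and 225 CPM by library, while cells with 2 Pgr UMIs ranged from 193 to 738 CPM.

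The rule's own genes are described without a test. Their values are CPM without TMM scaling. Paired members held 458, 582, 474 and 477 CPM of Pgr. Of the luminal keratins, Krt8 was at 1155, 884, 1907 and 1313 CPM in Pgr-positive cells and at 2498, 1927, 2078 and 2329 CPM in the others. Krt18 (3638 against 3228 CPM) and Krt19 (2159 against 1835 CPM) were higher in Pgr-positive cells of 4OHT replicate 1 and lower in the other libraries. Ly6d was at 1702 to 2169 CPM against 1390 to 1894 CPM. Fxyd2 was at 100, 375, 626 and 204 CPM in Pgr-positive cells against 164, 366, 433 and 88.5 in the others. Gpx3 was at 1095, 1626, 769 and 813 CPM against 590, 409, 1393 and 865. It was higher in Pgr-positive cells of both corn oil libraries and lower in those of both 4OHT libraries.

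The second comparison asked what 4OHT changed within Pgr-positive cells, 2 mice against 2. Pgr itself was at 422 and 596 CPM after corn oil and at 460 and 461 CPM after 4OHT (log2 -0.15, SE 0.26), with overlapping groups. Since at least 2 Pgr UMIs chose these cells, their Pgr level is partly set by the rule and serves as a description only. Over all hormone-sensing cells, whose gate did not use Pgr, Pgr was at 133 and 214 against 178 and 146 CPM (log2 -0.10, SE 0.30). Of 4265 genes tested in members, 1 (0.0234%) passed, Tmsb4x, which encodes the actin-sequestering peptide thymosin beta 4. Its level was 2527 and 2792 CPM after corn oil and 9260 and 9797 CPM after 4OHT (log2 1.84, SE 0.19, adjusted p = 0.0119), so both 4OHT libraries stood well above both corn oil libraries. Unadjusted, 258 genes had p under 0.05. DESeq2 called 3 genes, and leaving out corn oil replicate 1, corn oil replicate 2, 4OHT replicate 1 or 4OHT replicate 2 gave 52, 34, 19 and 40. Members defined by at least 3 or by at least 1 Pgr UMI gave 0 calls (140 and 322 at an unadjusted p under 0.05).

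Values of Tmsb4x in the other hormone-sensing cells went the same way. In cells without Pgr, at matched depth, it was at 7770 and 6222 CPM after corn oil and at 11388 and 14674 CPM after 4OHT. Over all hormone-sensing cells it was at 6279 and 4242 against 10573 and 13625 CPM (log2 1.20, SE 0.25, adjusted p = 0.716). The test of the difference between Pgr-positive cells and cells without Pgr gave an interaction of 0.98 (SE 0.19, adjusted p = 0.141), which did not pass. No gene of 4647 passed that test (0.0%) or DESeq2's. At an unadjusted p under 0.05 there were 177 and 30. On simulated counts (dispersion set at 0.04) the edgeR interaction test found 41.5% of 200 genes changed by 2 on the log2 scale. Genes that did not pass may therefore still differ. In the real counts Hmox1 and BC018473 had the smallest p besides Tmsb4x. Hmox1 was at 159, 113, 142 and 597 CPM in Pgr-positive cells and at 199, 557, 84.8 and 169 CPM in the others, with 1 library high in each group. BC018473 had 0 UMIs in 3 of 4 Pgr-positive sums and 6 in 4OHT replicate 2. Leaving out corn oil replicate 1 or 2 gave 11 and 24 interaction calls.

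**Figure D5:**
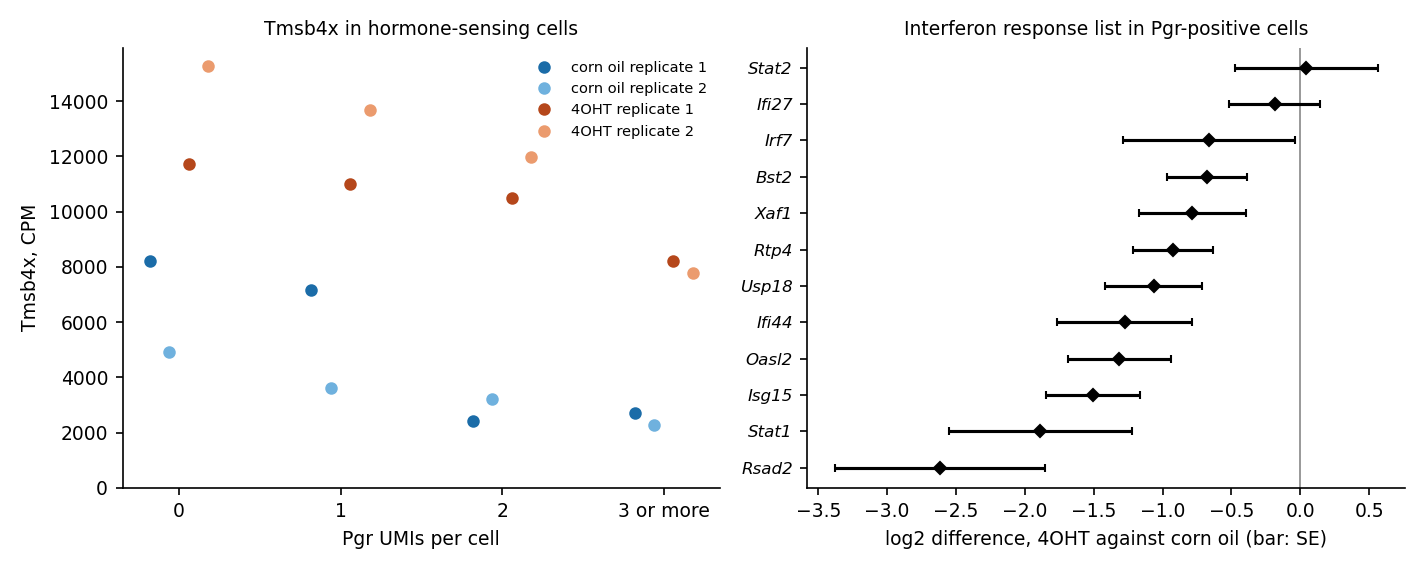
Left: Tmsb4x in CPM by number of Pgr UMIs per cell, 1 point per library; the 2 corn oil libraries lie below the 2 4OHT libraries in each class. Right: log2 difference between 4OHT and corn oil in Pgr-positive cells for the 12 tested interferon genes with standard errors; 11 are below 0 and none passed.

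Genes that did not pass are given by their values. Those with the smallest p among the higher ones were Fam25c (208 and 180 against 648 and 1070 CPM, adjusted p = 0.107), Fos (71.3 and 120 against 313 and 308 CPM, adjusted p = 0.318), Il33 and Crip1. Among the lower ones were Wisp2 (13 and 27 UMIs against 1 and 0), Sgms2 (128 and 154 against 55.9 and 33.6 CPM), Mad2l1, Herc6 and Tnip3. Of 12 tested interferon genes 11 were lower after 4OHT, at a median log2 difference of -1.0 beside 0.0053 over all genes, and none passed. In the same fit 16 of 18 preparation stress genes (median 0.39) and 13 of 16 heat shock chaperones (median 0.71) were higher after 4OHT, and none passed. Over all 4265 genes of that fit, 2155 were higher and 2110 lower. The part of the stress and chaperone genes in the interferon values was not tested. Over all hormone-sensing cells 12 of 15 interferon genes were lower, at a median of -0.39, beside 3803 of 7507 genes. Isg15 was at 108 and 106 against 29.0 and 45.4 CPM and Rsad2 at 22.8 and 78.2 against 2.07 and 13.5 CPM. Esr1 (39.9 and 16.1 against 41.4 and 35.3 CPM), Prlr (402 and 525 against 795 and 643), Areg (228 and 186 against 431 and 251), Cited1 (280 and 78.3 against 219 and 286), Foxa1 (99.8 and 43.7 against 82.8 and 119) and Wnt4 (28.5 and 36.8 against 18.6 and 33.6) did not pass.

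Over all hormone-sensing cells the treatment test called 0 of 7507 genes (0.0%). DESeq2 called 7, and 243 had an unadjusted edgeR p under 0.05. Ctsr, a cathepsin gene, came closest, with 1.48 and 3.78 CPM after corn oil and 57.5 and 51.5 CPM after 4OHT (adjusted p = 0.0577), followed by 4930486L24Rik (0.741 and 0.63 against 34.1 and 12.7 CPM) and Vim (6.67 and 5.67 against 24.6 and 35.6 CPM). Leaving out corn oil replicate 1, corn oil replicate 2 or 4OHT replicate 2 gave 49, 20 and 71 calls, and leaving out 4OHT replicate 1 gave 0.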

How the data were processed

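Single-cell 3′ libraries were deposited by the authors as 10x matrices of raw UMI counts for 31053 genes, made with Cell Ranger 3.0.1 per the submitters' processing notes, with reads aligned to mm10 per the labels. Counts were used as deposited and not corrected for free RNA, and doublets were not called. Repeated symbols were kept apart by identifier. Cells were gated, paired by depth and summed in Python 3.11.15 (numpy 2.4.6, scipy 1.17.1, pandas 2.3.3). Sums were tested in R 4.3.3 with edgeR 4.0.16 (TMM scaling, filterByExpr, quasi-likelihood test, Benjamini-Hochberg adjustment over all genes tested, threshold 0.05), and the calculations were tested on simulated data. DESeq2 1.42.0 served as an alternative, beside other scalings, filters, Pgr thresholds, pairing ratios, purer cells, thinning and leaving out each library. Both Pgr classes of a library come from the same animal, and their deviations correlated at 0.211 to 0.469, so library was a term. Treatment fits had no block. P-values between treatments rest on 2 mice per condition.

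Named genes were the 12 with the largest log2 difference in each direction among those passing, with at least 20 CPM on average and 1 direction in all 4 libraries, every passing member of a list, and 2 to 4 of the most abundant members of each list. Directions and log2 differences of single libraries used CPM without the TMM factors. For the treatment tests 5 in each direction were named, or 3 where none passed. A set of hormone genes was always given. The members and lists were chosen with earlier results of these data known. Gene positions and lengths come from a GRCm38 annotation and promoters from RefSeq (GRCm38.p6). Intervals cover counting error only.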

Additional observations from a re-analysis of the deposited data

Results flagged for a closer look

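Of 52 genes examined for a library that stood far from the other 3 in its difference between Pgr-positive cells and cells without Pgr, 3 had one, and chance alone gives about 1 in 20. For Gm16485 the log2 difference in corn oil replicate 1 was 1.92, below the 2.43 to 2.5 of the other libraries. For Gm16136 it was -4.64 in corn oil replicate 1, where Pgr-positive cells had 0 UMIs. For Oasl2 it was 0.24 in 4OHT replicate 1.

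The difference of Areg between Pgr-positive cells and cells without Pgr itself differed between treatments by -1.49 on the log2 scale (edgeR quasi-likelihood interaction, unadjusted p = 0.00243, adjusted p = 0.566), with 234 and 183 CPM after corn oil and 306 and 232 after 4OHT in Pgr-positive cells against 228, 165, 468 and 1025 in the others. For Foxa1 that interaction was 1.1 (unadjusted p = 0.0205, adjusted p = 1). Neither passed over all genes.

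Cells under 2000 UMIs were left out of the members. Of 20 that met the hormone-sensing gate, 5 (25%) had a Pgr UMI and 2 had at least 2.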

How the results depend on the processing

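The 396 genes that differed by Pgr status became 93 with DESeq2, 225 with a threshold of 1 Pgr UMI, 239 in purer cells, 107 and 104 with paired and with all cells thinned to 2000 UMIs, 0 without the library term (no replicate block), and 167 to 301 when each library was left out. The treatment count in members became 60 with no filter on low counts, 3 with DESeq2, 0 with a threshold of 3 or of 1 Pgr UMI, 2 with a replicate block, and 19 to 52 with a library left out, where the lone sample of an arm is assumed to vary like the others. The interaction gave 26 with no filter, 1 with a mean of at least 20 CPM, 2 in purer cells and 0 to 24 with a library left out. Over all hormone-sensing cells the counts were 1 with DESeq2 size factors, 58 with no filter, 7 with DESeq2, 3 with a replicate block and 0 to 71 with a library left out. Replicate numbers were shared by both treatments with no stated pairing; the deviations of same-numbered libraries correlated at 0.311 in members, with 2 pairs. The share difference of -0.366 points was the same with the replicate block (0.289 and -1.02 within numbers), and -1.69 at 4000 UMIs, -1.71 with 1 Pgr UMI, -1.96 with a stricter gate, and -1.03 to 0.299 with a library left out.

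With 1 Pgr UMI as threshold, Dcn was at 0.017, Esr1 at 0.13 and Prlr at -0.032 (log2). Prlr was at -0.16 with paired cells thinned. Foxa1 was at -0.017 with DESeq2 size factors, -0.023 with no filter, -0.036 at 20 CPM, -0.057 with DESeq2 and -0.21 with all cells thinned. With a library left out, the ranges were -0.70 to -0.35 for Dcn, -0.33 to 0.10 for Esr1, 0.0016 to 0.31 for Prlr, -0.26 to 0.26 for Foxa1, and for the treatment difference of Pgr -0.38 to 0.13 in members and -0.41 to 0.30 in all hormone-sensing cells. The difference in genes detected was 229 unpaired, 54.0 thinned and 114.5 to 149 with a library left out; that in total UMIs was 596 unpaired and 17.7 to 49.2, and that in mitochondrial percent 0.381 to 0.626. Of 813 values of 52 named genes under the alternatives for Pgr status, 602 kept direction and side of the threshold, 197 no longer passed, 2 newly passed and 12 changed direction. The causes of these changes were not tested. Limits of depth fall on genes with few UMIs in the 39 members of corn oil replicate 1.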
